A study of Mus musculus with 23 samples.

Results

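The genes described here are those of the cytosolic ribosome, taken from RNA-seq counts of mouse testes and of testis explants. A row of the count table belonged to the set when its symbol was Rps or Rpl followed by a digit, or was Rplp0, Rplp1, Rplp2 or Rpsa, while rows for -ps pseudogenes and Rps6k kinases were left out. This gave 90 of 27466 rows. Of these, 77 encode the canonical ribosomal proteins (31 of the small 40S subunit and 46 of the large 60S subunit), 4 are autosomal relatives of X-linked members, 7 are other paralogs, and Rps19bp1 and Rps23rg1 carry such a symbol without encoding a ribosomal protein. Of the 90 genes, 89 passed the filter on low counts. Rpl32l did not, with 0 counts in 9 of the 21 libraries analysed.

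All tissue came from wild-type CD-1 mice, an outbred stock, so the animals differ in genotype at other loci. In vivo testes were sequenced at 6.5 dpp (days postpartum; 4 libraries, of which 1 was from fresh tissue and 3 from tissue thawed after controlled slow freezing, CSF), at 10.5 dpp (3 libraries), at 22.5 dpp (3 libraries) and at 36.5 dpp (2 libraries). Fragments of 6.5 dpp testes were grown in vitro with KnockOut serum replacement, gentamicin and retinol for 4 days (D4, 3 libraries), 16 days (D16, 2 libraries) or 30 days (D30, 3 libraries from fresh and 1 from CSF tissue), so that D4 matches 10.5 dpp in age, D16 matches 22.5 dpp and D30 matches 36.5 dpp. Explants were pooled for each replicate after the necrotic centre had been cut away, so a cultured library holds the surviving rim of several explants. Frozen and fresh libraries of a stage were kept in the same group, as in the study. Library totals ran from 28351546 to 69029328 counts.

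The library labelled 6.5 dpp fresh replicate 1 was left out because its other genes went against its label. Piwil1, a gene of pachytene spermatocytes, had 778 CPM (counts scaled to the library total) in it and 2.43 to 9.13 CPM in the other 6.5 dpp libraries. Spo11, which makes the DNA breaks of meiosis, had 95.0 CPM against 1.48 to 2.69 CPM, and the haemoglobin gene Hba-a1 had 0 CPM against 19.5 to 64.4 CPM. Which sample its column holds cannot be told here. In it the ribosomal protein genes took 0.412% of the counts. The column of 6.5 dpp fresh replicate 3 did not differ from that of replicate 2 in any gene, and the pair was counted as 1 sample. The library of 6.5 dpp CSF replicate 3 stood apart too. Other genes with transcripts under 1000 nt took 9.10% of its counts, against 3.65% to 4.65% in the other 6.5 dpp libraries, and results that rest on it are given with and without it.

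Ribosomal proteins coat and fold the ribosomal RNAs, and with them form the 40S subunit, which reads the mRNA, and the 60S subunit, which joins amino acids. Most of their mRNAs begin with a run of pyrimidines after a C, the 5′ terminal oligopyrimidine (TOP) motif, through which mTOR signalling controls their translation. In the testis the set has a further layer. The X chromosome is silenced in spermatocytes during meiosis, and retrocopies of X-linked genes on autosomes, such as Rpl10l and Rpl39l, are transcribed in germ cells. Mice without Rpl10l are infertile because male meiosis fails, and Rpl39l replaces Rpl39 at the exit tunnel of ribosomes in spermatids.

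Whether a relative and its X-linked parent can be told apart by short reads depends on their sequence. Rpl39 and Rpl39l are shown because the relative and its parent changed in opposite directions from 10.5 to 22.5 dpp. The coding sequence of Rpl39 runs over chrX:37082701-37085127 on the minus strand of GRCm38 (interrupted by introns), and that of Rpl39l over chr16:10174310-10174465 on the plus strand. Both are 156 nt long, and capitals mark the 23 bases at which they differ.
Rpl39: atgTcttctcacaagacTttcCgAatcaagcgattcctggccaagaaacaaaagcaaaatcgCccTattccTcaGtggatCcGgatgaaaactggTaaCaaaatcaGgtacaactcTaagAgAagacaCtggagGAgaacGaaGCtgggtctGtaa
Rpl39l: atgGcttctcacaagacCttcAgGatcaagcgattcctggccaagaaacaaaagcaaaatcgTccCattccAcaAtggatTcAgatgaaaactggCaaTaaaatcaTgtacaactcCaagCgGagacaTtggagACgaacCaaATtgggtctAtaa
The identity of the pair was 85.3%, and of the 107 windows of 50 bases, the read length, 0 were shared. Rpl10 and Rpl10l were 84.8% identical over 645 nt, and Rpl36a and Rpl36al were 87.9% identical over 321 nt, again with 0 shared windows. Reads inside the coding sequence that match without error therefore separate the members of each of these pairs from each other. Other copies in the genome were not part of this comparison.

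The start sites of the canonical genes were examined for pyrimidine runs. In windows from 15 bases before to 15 bases after each RefSeq start (GRCm38.p6), the sense strand was searched for CTTTC or CTTCC, which can overlap. Of 57 canonical genes with a window, 23 held a match (40.4%), against 3259 of 27025 genes of the annotation (12.1%). The windows below were picked, after their letters and values were seen, as clear runs in 3 genes that fell from 10.5 to 22.5 dpp and, for contrast, in Rpl39l, which rose. Capitals mark the matches.
Rplp2 (chr7:141447636-141447665, plus strand): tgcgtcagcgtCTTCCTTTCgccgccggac
Rpl15 (chr14:18270972-18271001, minus strand): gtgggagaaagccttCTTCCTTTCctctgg
Rpl7a (chr2:26910792-26910821, plus strand): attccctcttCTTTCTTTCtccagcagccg
Rpl39l (chr16:10170213-10170242, plus strand): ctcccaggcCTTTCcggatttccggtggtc
A match is a description of these letters, and was not tested as a regulatory site.

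The counts of this family depend on how far reads can be placed, since the genome holds many processed copies of its members. Over all 90 genes the median share of 50-base transcript windows found in no transcript of another gene, pseudogenes included, of the GENCODE annotation was 47.2%, and 6 genes had under 10% while 11 had over 90%. Of the X-linked genes, Rpl10 had 7.87% of windows unique in this way, Rpl36a 14.5%, Rps4x 27.8% and Rpl39 83.5%. Levels per length were higher where that share was. In CPM per kb of transcript, averaged over the stages, the 23 canonical genes with under 25% unique windows had a median of 6.75 (range 0.746 to 77.6), the 45 genes with 25% to 75% had 44.6 (0.995 to 1112), and the 9 genes with over 75% had 223 (30.3 to 644). In the cell the canonical proteins are made in near equal numbers, whereas the highest level per kb, that of Rps14 (1112), and the lowest, that of Rpl23a (0.746), were far apart. Levels were therefore compared only for the same gene between libraries.

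As a share of all counts the ribosomal protein genes had their highest mean in the youngest testes, though not every library there was above the next stage. At 6.5 dpp the share was 1.02% in the fresh library and 0.954%, 1.35% and 3.08% in the CSF libraries, with a mean of 1.60% ± 1.000 (SD, n = 4). At 10.5 dpp it was 0.892%, 0.948% and 0.987% (0.942% ± 0.0478, SD, n = 3). The 6.5 dpp library at 0.954% lay within this range, and the fresh library, at 1.02%, lay just above it. At 22.5 dpp the share was 0.455%, 0.479% and 0.557% (0.497% ± 0.0532, SD, n = 3), below every library of 10.5 dpp. Without the 100 most abundant genes of each library the stages overlapped, at 0.699%, 0.543% and 0.574% for 10.5 dpp and 0.517%, 0.535% and 0.632% for 22.5 dpp. The genes removed included 3 to 6 ribosomal protein genes at 10.5 dpp and 0 at 22.5 dpp. The 2 libraries of 36.5 dpp, at 0.744% and 0.366%, lay on either side of the 22.5 dpp values.

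In vitro the share was less spread over the stages. It was 0.596%, 0.746% and 0.831% at D4 (0.724% ± 0.119, SD, n = 3), 0.890% and 0.538% at D16 (0.714% ± 0.249, SD, n = 2), and 0.440%, 0.721% and 0.467% in the fresh and 0.952% in the CSF library of D30 (0.645% ± 0.241, SD, n = 4). All 3 libraries of D4 lay below those of 10.5 dpp. Of D16, 1 library lay above all of 22.5 dpp and the other lay among them. At D30 only the CSF library lay above both libraries of 36.5 dpp, and the fresh ones lay between them. Without 6.5 dpp CSF replicate 3 the 6.5 dpp mean was 1.11%. No test was made of these shares. In bulk tissue, fewer cells of a type and less RNA per cell cannot be told apart.

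**Figure D1:**
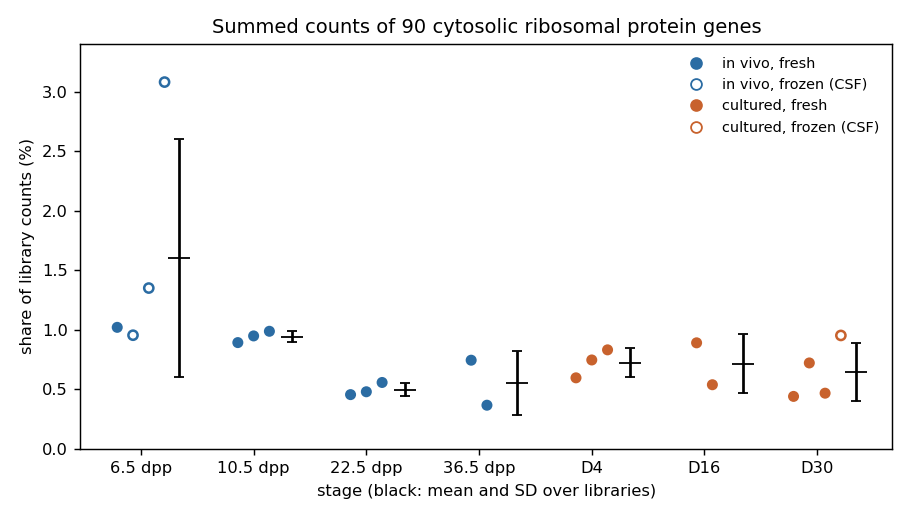
Summed counts of the 90 ribosomal protein genes as a percent of all counts (vertical axis) by stage (horizontal axis); each point is a library, filled for fresh and open for frozen (CSF) tissue, and black bars give the mean and SD. The 3 libraries of 22.5 dpp (0.455% to 0.557%) lie under the 3 of 10.5 dpp (0.892% to 0.987%), and 1 frozen 6.5 dpp library reaches 3.08%.

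Within a stage the libraries differed in a way that other short genes shared. The members have a median transcript length of 772 nt. For each library, the deviation from the mean of its stage was taken for the ribosomal protein genes and for 1017 other genes with transcripts under 1000 nt relative to 13459 longer genes. The 2 deviations had the same sign in 19 of 21 libraries. Both are measured from the stage mean, so signs within a stage are not independent. The 2 libraries of 36.5 dpp, and likewise those of D16, mirror each other. Only the short-gene value is relative to longer genes. The largest upward deviations of the short genes were those of 6.5 dpp CSF replicate 3 (0.89 for the short genes and 0.77 for the ribosomal protein genes, log2), D30 CSF replicate 1 (0.44 and 0.44) and 36.5 dpp replicate 1 (0.36 and 0.31). In 6.5 dpp CSF replicate 3, Rps14 alone took 15.2% of the set's counts. Each of the 3 is the library with the highest share in its group. A fit with the short-gene deviation as a covariate, chosen after seeing the data, is given beside each count of calls that it moved. In each of those comparisons it also raised the number of all genes called, in both directions.

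**Figure D2:**
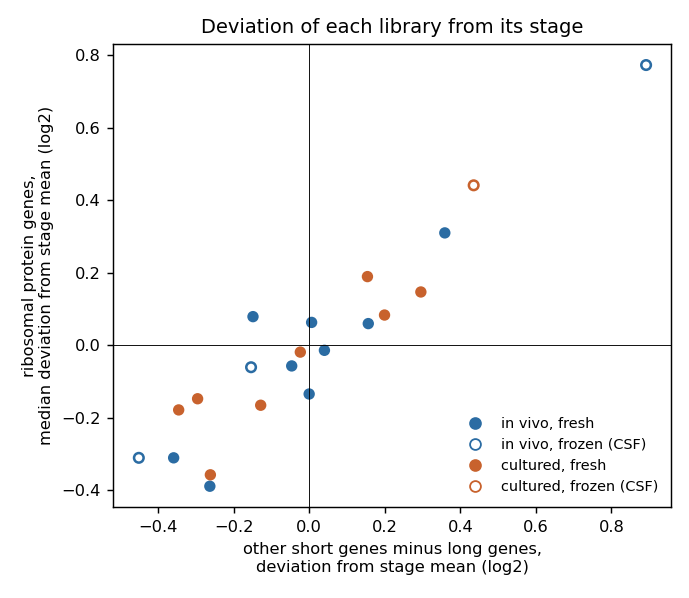
Median deviation of the ribosomal protein genes from their stage mean (vertical axis, log2) against the deviation of other short genes relative to long genes (horizontal axis, log2), with 1 point per library. The 2 have the same sign in 19 of 21 libraries, and 6.5 dpp CSF replicate 3 lies farthest out, at 0.89 and 0.77.

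Changes between stages were tested with edgeR on the counts of all 19255 genes that passed the filter, and a gene was called at an adjusted p under 0.05. From 6.5 to 10.5 dpp 0 ribosomal protein genes were called in either direction (0.675% of all genes were called higher and 0.467% lower). Of the 89 genes, 87 had a lower estimate at 10.5 dpp, with a median log2 fold change of -0.72 against -0.01 over all genes, and 28 had an unadjusted p under 0.05. DESeq2 called 3 lower, and edgeR called 1 lower without 6.5 dpp fresh replicate 2. The median was -0.18 without CSF replicate 3 and -0.07 with fresh libraries only. With the short-gene covariate 42 genes were called lower, against 1511 of all 19255 genes.

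From 10.5 to 22.5 dpp, the interval in which spermatocytes of meiotic prophase fill the tubules, 27 of 89 ribosomal protein genes fell (30.3%) and 4 rose (4.49%). Over all genes 27.9% were called lower and 33.6% higher, so that the share that fell was near the background and the share that rose was below it. The median log2 fold change was -0.62 against 0.06 over all genes. DESeq2 called 27 lower and 6 higher. The short-gene covariate gave 55 lower and 7 higher, against 6766 lower and 7328 higher of all 19255 genes. With library size as the only scaling the median of all genes shifted to -0.23, and that of the set relative to all genes was -0.70, against -0.68 with TMM. By subunit, 9 of 31 canonical 40S genes (29.0%) and 17 of 46 canonical 60S genes (37.0%) fell, each group with a median of -0.68. Summed CPM of 5 spermatocyte markers went from 178 to 233 at 10.5 dpp to 1898 to 1963 at 22.5 dpp, and that of 4 peritubular markers from 1618 to 1751 to 533 to 791, with 0 markers at 0 in every library of these groups. Their part in the result was not tested.

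All 4 X-linked ribosomal protein genes fell from 10.5 to 22.5 dpp. Rps4x, whose protein belongs to the 40S subunit, had 57.8, 61.4 and 60.0 CPM at 10.5 dpp and 10.2, 14.4 and 13.9 CPM at 22.5 dpp, a 3.80-fold fall (log2 fold change -1.93, standard error 0.36, adjusted p = 0.00019). Rpl36a, of the 60S subunit, had 3.19, 2.92 and 3.07 CPM and then 0.634, 1.12 and 0.664 CPM (log2 fold change -1.64, standard error 0.31, adjusted p = 0.00021). In both genes the 2 stages were well apart.

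Rpl10, whose protein joins the 60S subunit late in its assembly, had 8.31, 7.31 and 7.67 CPM at 10.5 dpp and 2.53, 4.04 and 2.91 CPM at 22.5 dpp (log2 fold change -1.01, standard error 0.29, adjusted p = 0.0052). Rpl39, which lines the exit tunnel, had 39.4, 49.8 and 48.1 CPM and then 8.45, 12.2 and 10.1 CPM (log2 fold change -1.88, standard error 0.75, adjusted p = 0.038), and its call was lost when any of the 6 libraries was left out (adjusted p from 0.054 without 10.5 dpp replicate 1 to 0.10 without 22.5 dpp replicate 1). In each gene all values of 22.5 dpp lay below those of 10.5 dpp. Of 800 tested genes of the X chromosome, 422 (52.8%) were called lower and 164 higher, against 27.9% and 33.6% of all genes. Their median log2 fold change was -0.85, so the direction was that of the chromosome's median.

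The autosomal relatives went the other way in 2 of 4 cases. Rpl10l, the chromosome 12 relative of Rpl10, had 22.5, 21.8 and 22.4 CPM at 10.5 dpp and 142, 133 and 152 CPM at 22.5 dpp, a 7.88-fold rise (log2 fold change 2.98, standard error 0.54, adjusted p = 0.00014). Rpl39l, on chromosome 16, had 37.1, 38 and 41.2 CPM and then 195, 138 and 220 CPM, a 5.91-fold rise (log2 fold change 2.56, standard error 0.68, adjusted p = 0.0034). The remaining relatives did not pass. Rpl36al had a log2 fold change of 0.72 (adjusted p = 0.19) and Rps4l of 0.19 (adjusted p = 0.60).

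The other genes called higher at 22.5 dpp were Rps29 and Rpl9. Rps29, of the 40S subunit, had 0.269, 0.334 and 0.236 CPM at 10.5 dpp, which is 12 to 13 counts per library, and 0.317, 1.14 and 1.45 CPM at 22.5 dpp (log2 fold change 2.07, standard error 0.49, adjusted p = 0.0013). Its lowest 22.5 dpp library lay among the 10.5 dpp values. Rpl9, of the 60S subunit, had 7.25, 8.34 and 7.66 CPM and then 9.06, 11 and 9.14 CPM (log2 fold change 0.62, standard error 0.17, adjusted p = 0.0052), with no overlap.

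Of the 3 stalk genes, only Rplp2 was among those that fell. The stalk of the 60S subunit, made of the acidic proteins P0, P1 and P2, recruits elongation factors. Rplp2 fell from 157, 145 and 178 CPM to 37.9, 50.9 and 55.8 CPM (log2 fold change -1.44, standard error 0.31, adjusted p = 0.00075). Rplp0, with 558, 586 and 605 CPM at 10.5 dpp and 412, 430 and 606 CPM at 22.5 dpp, had a log2 fold change of 0.03 (adjusted p = 0.94), and Rplp1 had -0.72 (adjusted p = 0.21). The genes of the stalk thus did not share a call.

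Rps6, the 40S protein phosphorylated by S6 kinases, had 2.87, 3.17 and 4.13 CPM at 10.5 dpp and 0.924, 1.97 and 1.26 CPM at 22.5 dpp (log2 fold change -1.01, standard error 0.37, adjusted p = 0.024). Its call was lost without 10.5 dpp replicate 3 (adjusted p = 0.088), 22.5 dpp replicate 1 (0.10) or 22.5 dpp replicate 3 (0.065), and with the library labelled 6.5 dpp fresh replicate 1 kept (0.066). Rpl6 had 34.3, 37.2 and 37.0 CPM and then 14.5, 15.9 and 11.4 CPM (log2 fold change -1.08, standard error 0.28, adjusted p = 0.0027). Rps6 and Rpl6 were both lower in each 22.5 dpp library than in any of 10.5 dpp. Rpl5 and Rpl11, which bind 5S rRNA and can inhibit Mdm2, did not pass (log2 fold changes 0.14 and -0.50, adjusted p = 0.61 and 0.20), nor did Rpsa, the laminin receptor (-0.55, adjusted p = 0.078), or Rpl38 (0.10, adjusted p = 0.87). Rps23rg1, a retrogene that does not encode a ribosomal protein, fell by 1.74 on the log2 scale (adjusted p = 0.0088).

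**Figure D3:**
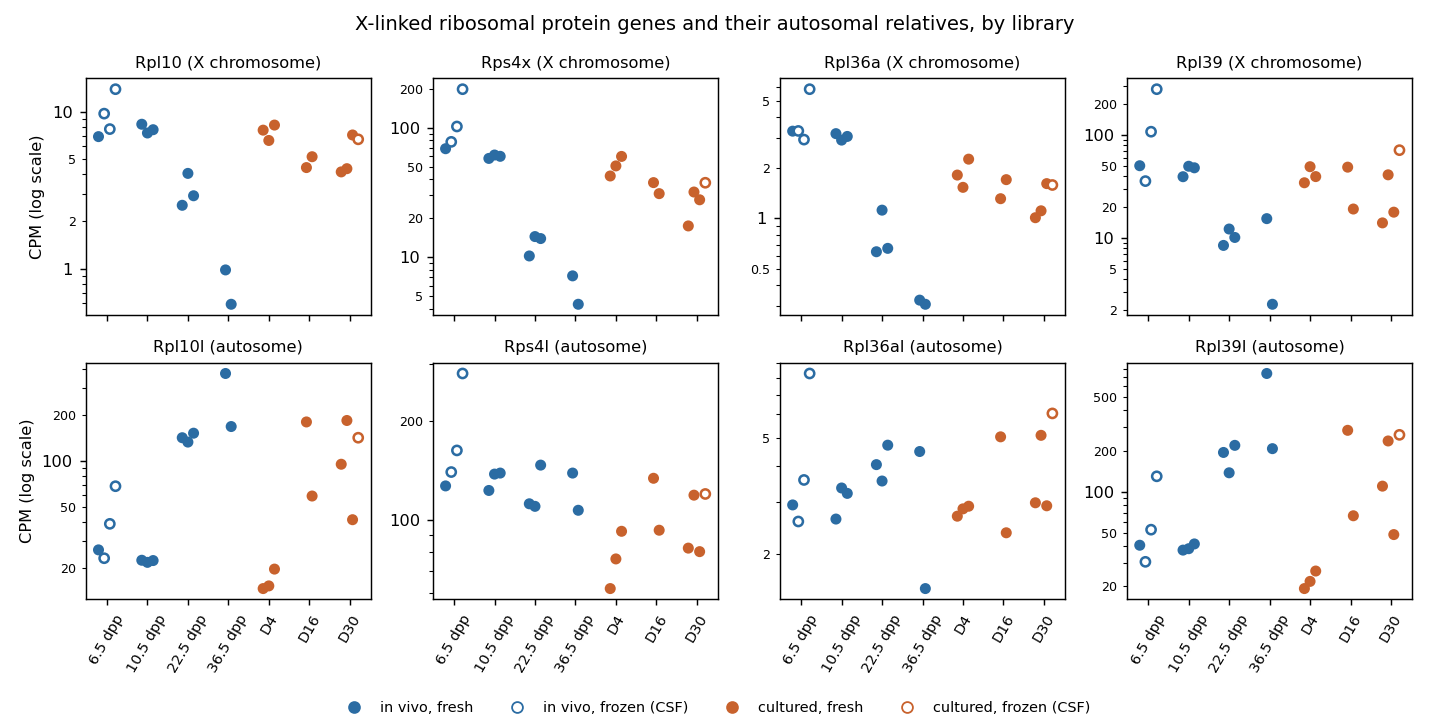
CPM (vertical axes, log scale, a range of its own in each panel) of the 4 X-linked ribosomal protein genes (top) and their autosomal relatives (bottom) in each library, by stage (horizontal axes); filled points are fresh and open points frozen tissue, blue in vivo and orange cultured. At 22.5 dpp Rps4x is at 10.2 to 14.4 CPM, under the 57.8 to 61.4 CPM of 10.5 dpp, while Rpl10l is at 133 to 152 CPM, over 21.8 to 22.5 CPM.

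From 22.5 to 36.5 dpp, as spermatids accumulate, 12 ribosomal protein genes rose and 8 fell (13.5% and 8.99% of 89, against 23.3% and 27.5% of all genes). The median log2 fold change was 0.25 against -0.13 over all genes, and DESeq2 called 16 higher and 5 lower. The split of calls followed the scaling. It was 15 higher and 4 lower with RLE factors, against 5161 and 4047 of all 19255 genes. With library size only it was 2 higher and 21 lower, against 3247 and 8379 of all genes, whose median shifted to -0.63. Relative to all genes the median of the set was 0.37 with TMM and 0.38 with either of the others. The 2 libraries of 36.5 dpp also differed, and without replicate 1 the calls were 2 higher and 4 lower, with a median of -0.36. With 22.5 dpp replicate 1, 2 or 3 left out, the calls were 4 higher and 8 lower, 4 higher and 5 lower, and 7 higher and 5 lower. With the short-gene covariate 31 were higher and 19 lower, against 5423 and 6833 of all 19255 genes.

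Rpl36, of the 60S subunit, had the clearest rise. It went from 1.43, 1.71 and 1.99 CPM at 22.5 dpp to 7.60 and 5.20 CPM at 36.5 dpp (log2 fold change 2.41, standard error 0.38, adjusted p = 8.4e-05). Rpl35 had 5.15, 5.42 and 6.01 CPM and then 33.3 and 7.28 CPM (log2 fold change 2.37, standard error 0.74, adjusted p = 0.013), which rested on 36.5 dpp replicate 1 (0.92, adjusted p = 0.41 without it). Rpl36 was high in both 36.5 dpp libraries and Rpl35 in 1 of them.

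Rpl10l had 373 and 168 CPM at 36.5 dpp and Rpl39l had 746 and 208 CPM, with log2 fold changes from 22.5 dpp of 1.42 (adjusted p = 0.040) and 1.85 (adjusted p = 0.037). Without 36.5 dpp replicate 1 these were 0.76 (adjusted p = 0.39) and 0.68 (adjusted p = 0.55), and both calls were lost with library size only. They were also lost when any of the 22.5 dpp libraries was left out (adjusted p from 0.067 to 0.11 for Rpl10l and from 0.056 to 0.12 for Rpl39l). With the library labelled 6.5 dpp fresh replicate 1 kept neither passed (adjusted p = 0.086 and 0.055), nor did Rpl10l with the replicate block (0.053). In 36.5 dpp replicate 2 Rpl10l lay just above and Rpl39l within the range of 22.5 dpp.

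Among the genes that fell from 22.5 to 36.5 dpp, Rpl10 declined further, from 2.53, 4.04 and 2.91 CPM to 0.980 and 0.592 CPM (log2 fold change -1.49, standard error 0.35, adjusted p = 0.0021). Rpl10a, of the L1 stalk of the 60S subunit, had 12.1, 18.8 and 14.3 CPM and then 3.36 and 4.50 CPM (log2 fold change -1.41, standard error 0.25, adjusted p = 0.00022). Rpl3, a core 60S protein near the peptidyl transferase centre, had 4.78, 7.0 and 4.80 CPM and then 1.25 and 1.77 CPM (log2 fold change -1.34, standard error 0.29, adjusted p = 0.0012). In these 3 genes both libraries of 36.5 dpp were lowest. Rpl23a was called lower (adjusted p = 0.045) on 1 and 2 counts at 36.5 dpp, and its fold is not given. Rpl3l, the muscle paralog of Rpl3, fell by 1.08 on the log2 scale (adjusted p = 0.018), and Rpl38 rose by 1.56 (adjusted p = 0.013) from 6, 18 and 14 counts per library. Rpl3l was not called with RLE factors (adjusted p = 0.053), without 22.5 dpp replicate 3 (0.061) or without 36.5 dpp replicate 1 (0.13), nor was Rpl38 with library size only (1.04, adjusted p = 0.075), without 22.5 dpp replicate 1 (0.054) or without 36.5 dpp replicate 1 (0.13). Rps4x had 7.16 and 4.32 CPM and Rpl36a 0.327 and 0.309 CPM at 36.5 dpp, neither passing against 22.5 dpp (adjusted p = 0.19 and 0.089).

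**Figure D4:**
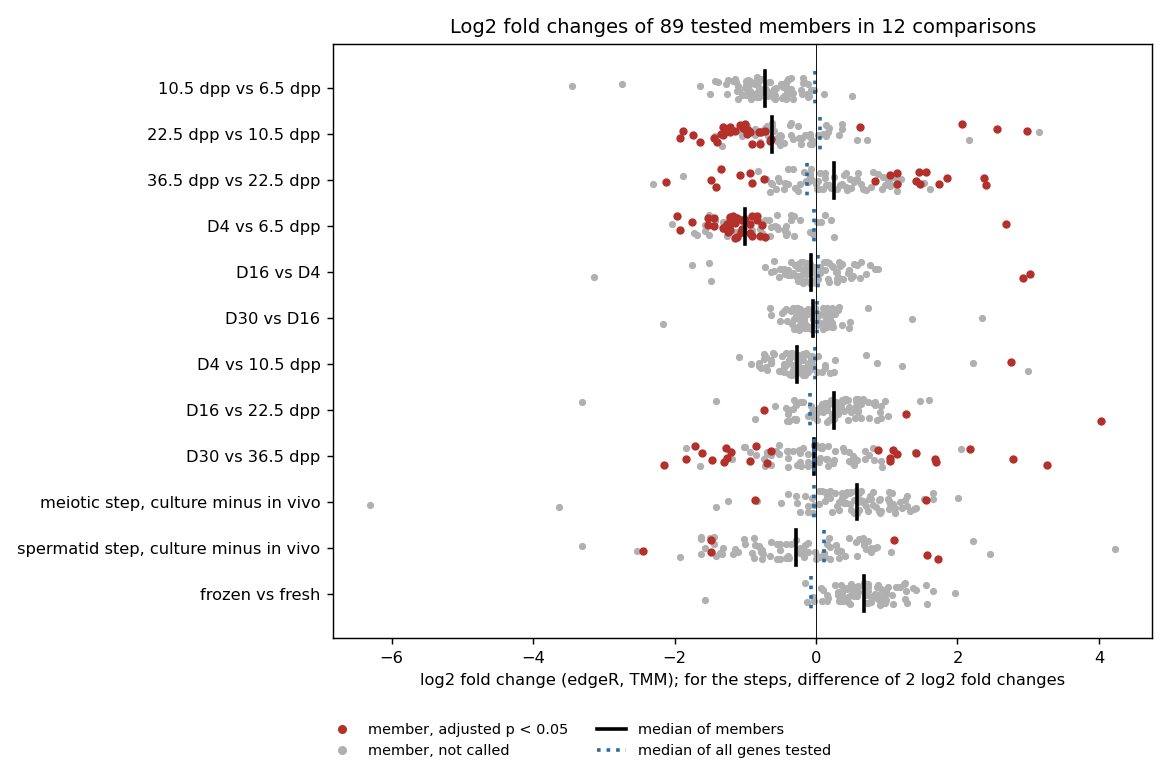
Log2 fold changes (horizontal axis) of the 89 tested ribosomal protein genes in 12 comparisons (vertical axis), with genes called by edgeR in red; black bars are medians of the set and dotted blue bars medians of all genes tested. The set's median lies at -0.62 for 22.5 vs 10.5 dpp and at -1.0 for D4 vs 6.5 dpp, and at 0.25 for 36.5 vs 22.5 dpp.

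The explants were compared with the tissue they came from. At D4, 35 ribosomal protein genes were lower than at 6.5 dpp (39.3%) and 1, Rps19, was higher (1.12%), against 10.1% and 10.8% of all genes. The median log2 fold change was -1.0 against -0.03 over all genes. DESeq2 called 55 lower and 1 higher, against 2947 and 2195 of all 19255 genes. The count depended on which 6.5 dpp libraries were used. Without CSF replicate 3 there were 11 lower and 1 higher, with a median of -0.52, and with fresh libraries only there were 0 calls, 9 genes at an unadjusted p under 0.05 and a median of -0.39. In that last fit 6.5 dpp is 1 library, which is assumed to vary like the other groups. With the library labelled 6.5 dpp fresh replicate 1 kept there were 0 calls and 30 genes at an unadjusted p under 0.05. Lower calls numbered 22 without CSF replicate 2, and 6, 5 and 17 without D4 replicate 1, 2 and 3. Lower calls over all genes moved too. They numbered 1680 without CSF replicate 3, 1524 without CSF replicate 2, and 999, 1017 and 1127 without D4 replicate 1, 2 and 3. With the short-gene covariate 67 genes were lower, against 3645 of all 19255 genes.

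Of the genes lower at D4, Rplp2 had 163 CPM in the fresh and 144, 142 and 304 CPM in the CSF libraries of 6.5 dpp, and 61.8, 66.8 and 111 CPM at D4 (log2 fold change -1.25, standard error 0.30, adjusted p = 0.0060). Rps4l, the autosomal relative of Rps4x, had 127, 140, 163 and 280 CPM and then 61.7, 76.0 and 92.3 CPM (log2 fold change -1.22, standard error 0.29, adjusted p = 0.0054). Neither gene overlapped between the groups, and with the 1 fresh 6.5 dpp library alone the log2 fold changes were -0.98 (adjusted p = 0.069) and -0.67 (adjusted p = 0.28). The largest estimates among the called genes were those of Rps21 (-1.96, adjusted p = 0.040, and -0.87 with adjusted p = 0.25 without CSF replicate 3), Rpl35 (-1.92, adjusted p = 0.043) and Rps23rg1 (-1.76, adjusted p = 0.011). In Rpl35 the 6.5 dpp values ran from 8.32 to 66.7 CPM and overlapped those of D4 (4.46 to 11.6 CPM), and its log2 fold change without CSF replicate 3 was -1.08 (adjusted p = 0.21). Rps6 (-1.12, adjusted p = 0.028), Rpl6 (-0.76, adjusted p = 0.048), Rps4x (-1.15, adjusted p = 0.022), Rpl36a (-1.04, adjusted p = 0.014) and Rpl7l1, a paralog of Rpl7 (-1.13, adjusted p = 0.049), were also lower. Without CSF replicate 3 the values were -0.88 for Rps6 (adjusted p = 0.079), -0.50 for Rpl6 (adjusted p = 0.16), -0.64 for Rps4x (adjusted p = 0.073) and -0.56 for Rpl7l1 (adjusted p = 0.23). The calls of Rpl6 and Rpl7l1 were lost when any D4 library, CSF replicate 2 or most libraries of other stages were left out 1 at a time, that of Rps6 without any D4 library, and those of Rps4x and Rpl36a without D4 replicate 1 or 2.

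Against its age-matched in vivo control, few genes differed at D4. Compared with 10.5 dpp, 1 ribosomal protein gene was higher, again Rps19, and 0 were lower (1.12% and 0%, against 4.92% and 3.18% of all genes), with 8 genes at an unadjusted p under 0.05. DESeq2 also called 1 higher and 0 lower. The median log2 fold change was -0.27 against -0.01 over all genes. Without 6.5 dpp CSF replicate 3 or without D4 replicate 3 there were 1 higher and 2 lower. Without any of the 10.5 dpp libraries there were 0 calls. With the short-gene covariate there were 1 higher and 12 lower, against 1779 and 1533 of all 19255 genes.

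From D4 to D16 only Rpl10l and Rpl39l were called, both higher, of 89 genes (2.25% higher and 0% lower, against 18.4% and 5.48% of all genes), and DESeq2 called 2 higher and 0 lower. The median was -0.07 against 0.03 over all genes. Rpl10l had 14.7, 15.3 and 19.7 CPM at D4 and 180 and 59.1 CPM at D16 (log2 fold change 2.92, standard error 0.57, adjusted p = 0.00085). Rpl39l had 19.3, 21.8 and 26 CPM and then 284 and 66.5 CPM (log2 fold change 3.03, standard error 0.73, adjusted p = 0.0046). Both D16 libraries lay above all of D4, but D16 replicate 1 was far higher than replicate 2, and without it the changes were 1.87 (adjusted p = 0.061) and 1.60 (adjusted p = 0.29), with 0 genes called by edgeR. Without 6.5 dpp CSF replicate 3 there were 2 higher and 2 lower. The short-gene covariate gave 7 higher and 7 lower, against 4670 and 3083 of all 19255 genes. Summed spermatocyte markers were at 297 to 357 CPM at D4 and, in D16 replicates 1 and 2, between 852 and 1346 CPM.

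The rise of both relatives in vitro was set against that in vivo as a difference of differences, (D16 minus D4) minus (22.5 minus 10.5 dpp). Rpl10l differed by -0.06 (adjusted p = 0.99) and Rpl39l by 0.47 (adjusted p = 0.80), which does not show that the rises were alike. For this step the difference was called positive for 1 ribosomal protein gene, Rplp2 (1.55, standard error 0.46, adjusted p = 0.041). It was called negative for 1, Rpl9 (-0.87, standard error 0.26, adjusted p = 0.046), that is 1.12% in each direction against 5.26% and 4.36% of all genes. Rplp2 had means of 79.7 CPM at D4 and 83.1 CPM at D16, and of 160 CPM at 10.5 dpp and 48.2 CPM at 22.5 dpp. Rpl9 had 7.94 and 6.47 CPM in culture, and 7.75 and 9.73 CPM in vivo. DESeq2 called 1 higher and 2 lower. The set's median was 0.58 against -0.03 over all genes, and 0.60 relative to all genes under each scaling. With library size only, 4 were higher and 0 lower, against 1614 and 592 of all 19255 genes. With RLE factors 0 were higher and 1 lower, against 857 and 993 of all genes. With D16 replicate 1 left out neither gene passed (adjusted p = 0.088 for Rplp2 and 0.12 for Rpl9). There were also 0 calls without D16 replicate 2, D4 replicate 1, 22.5 dpp replicate 1 or 3, or any 10.5 dpp library, 1 call without 6.5 dpp CSF replicate 2, D4 replicate 2 or 3, D30 fresh replicate 1 or D30 CSF replicate 1, and 5 higher and 1 lower without 6.5 dpp CSF replicate 3. With the short-gene covariate 28 were higher and 1 lower, against 3045 and 2273 of all 19255 genes.

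Against 22.5 dpp, D16 had 2 ribosomal protein genes higher, Rps19 and Rps4x, and 1 lower, Rpl9 (2.25% and 1.12%, against 14.0% and 11.8% of all genes), and DESeq2 called the same numbers. The median was 0.26 against -0.08 over all genes. With library size only, 2 were higher and 0 lower, against 3250 and 1526 of all 19255 genes. Rps4x had 37.6 and 30.9 CPM at D16 and 10.2, 14.4 and 13.9 CPM at 22.5 dpp (log2 fold change 1.27, standard error 0.39, adjusted p = 0.025, and from 0.057 to 0.093 without 22.5 dpp replicate 1 or 3 or either D16 library). Rpl9 had 5.91 and 7.04 CPM at D16 and 9.06, 11 and 9.14 CPM at 22.5 dpp (log2 fold change -0.74, standard error 0.20, adjusted p = 0.014, and 0.076 and 0.078 without D16 replicate 1 and 2). Neither gene overlapped between the groups. Rpl10 (4.40 and 5.16 CPM at D16, log2 fold change 0.45, adjusted p = 0.30), Rpl36a (0.75, adjusted p = 0.11) and Rpl39 (1.59, adjusted p = 0.15) did not pass. Without 6.5 dpp CSF replicate 3 there were 6 higher and 2 lower, and without either D16 library there was 1 call. With the short-gene covariate 22 were higher and 1 lower, against 4492 and 4391 of all 19255 genes.

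From D16 to D30, 0 ribosomal protein genes were called by edgeR in either direction (1.46% of all genes were called higher and 0.332% lower) or by DESeq2, with 2 at an unadjusted p under 0.05 and a smallest adjusted p of 0.39 (Rps2). The median was -0.05 against 0.01 over all genes. Rpl10l had 95.3, 184 and 41.4 CPM in the fresh and 142 CPM in the CSF libraries of D30, and Rpl39l had 110, 237, 48.3 and 263 CPM, which overlapped the D16 values.

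At D30 the set was divided against 36.5 dpp. Of 89 genes 11 were higher and 13 lower (12.4% and 14.6%, against 32.4% and 35.0% of all genes), with a median of -0.03 for the set and for all genes, and DESeq2 called 7 higher and 17 lower. The split followed the scaling. Under library size only there were 36 higher and 3 lower, against 8833 and 4585 of all 19255 genes, and the median of all genes shifted to 0.60. RLE factors gave 7 higher and 17 lower, against 5168 and 7766 of all genes. Relative to all genes the median was 0.00 or 0.01 under each. Without 36.5 dpp replicate 1 there were 15 higher and 3 lower, with a median of 0.46. With the short-gene covariate 20 were higher and 27 lower, against 7250 and 7569 of all 19255 genes. Summed CPM of 5 spermatid markers was 16421 to 21335 at 36.5 dpp and 346 to 1635 at D30, and that of 4 macrophage markers was 65.2 to 111 and 318 to 702. The part of these cells in the results was not tested.

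The X-linked genes were higher at D30 than at 36.5 dpp, 3 of 4 by the test. Rpl10 had 4.13, 4.33 and 7.10 CPM in the fresh and 6.66 CPM in the CSF libraries of D30 against 0.980 and 0.592 CPM at 36.5 dpp, a 4.53-fold difference (log2 fold change 2.18, standard error 0.35, adjusted p = 4.1e-05). Rps4x had 17.4, 31.8, 27.7 and 37.5 CPM against 7.16 and 4.32 CPM (log2 fold change 1.68, standard error 0.41, adjusted p = 0.0015). Rpl36a had 1.01, 1.11, 1.61 and 1.58 CPM against 0.327 and 0.309 CPM (log2 fold change 1.42, standard error 0.38, adjusted p = 0.0031). In all 3 genes every D30 library lay above both of 36.5 dpp. Rpl39, with 14.0, 41.1, 17.8 and 71.4 CPM against 15.4 and 2.26 CPM, did not pass (log2 fold change 1.4, adjusted p = 0.14). Of 800 tested genes of the X chromosome 430 were higher and 186 lower, with a median of 1.23, against 32.4% and 35.0% of all genes.

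Of the 4 autosomal relatives, 3 were lower at D30. Rpl39l was lower at D30 than the 746 and 208 CPM of 36.5 dpp (log2 fold change -2.15, standard error 0.65, adjusted p = 0.0076), as were Rpl10l against 373 and 168 CPM (log2 fold change -1.84, standard error 0.51, adjusted p = 0.0042) and Rps4l, with 82.0, 119, 80.0 and 120 CPM against 139 and 107 CPM (log2 fold change -0.93, standard error 0.30, adjusted p = 0.012). The D30 values overlapped the lower library of 36.5 dpp in all 3 genes. Rpl36al, with 2.99, 5.09, 2.92 and 6.05 CPM against 4.48 and 1.52 CPM, did not pass (log2 fold change -0.12, adjusted p = 0.84). Without 36.5 dpp replicate 1 the changes were -1.0 (adjusted p = 0.29), -1.19 (adjusted p = 0.11) and -0.77 (adjusted p = 0.10), and Rps4l did not pass with library size only (-0.29, adjusted p = 0.36).

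Other autosomal genes also differed at D30. Rpl3 had 6.47, 7.83, 7.96 and 8.44 CPM at D30 against 1.25 and 1.77 CPM (log2 fold change 1.70, adjusted p = 6.7e-05), and Rpl36 had 2.20, 2.84, 3.25 and 3.92 CPM against 7.60 and 5.20 CPM (log2 fold change -1.71, standard error 0.35, adjusted p = 0.00034). In neither gene did the groups overlap. Rpl23a was called higher at D30 (adjusted p = 0.0050) against the 1 and 2 counts of 36.5 dpp. Rplp2 (-0.85, adjusted p = 0.026) and Rpl5 (-0.70, adjusted p = 0.013) were lower, and neither passed with library size only (adjusted p = 0.58 and 0.81).

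The change from D16 to D30 minus that from 22.5 to 36.5 dpp was called higher in culture for 3 ribosomal protein genes and lower for 3 (3.37% each way, against 11.5% and 8.63% of all genes), with a median of -0.29 against 0.11 over all genes. DESeq2 called 3 higher and 5 lower, and RLE factors gave 2 higher and 4 lower. Library size only gave 9 higher and 1 lower, against 5417 and 1178 of all 19255 genes. With that scaling the median of all genes was 0.59, and that of the set relative to all genes was -0.39 (-0.40 with TMM). The differences called positive were those of Rpl10 (1.73, adjusted p = 0.016), Rpl3 (1.57, adjusted p = 0.011) and Rpl10a (1.10, adjusted p = 0.028). Those called negative were of Rpl36 (-2.45, adjusted p = 0.0039), Rpl30 (-1.48, adjusted p = 0.023) and Rplp2 (-1.48, adjusted p = 0.034). Rpl10l and Rpl39l differed by -1.44 (adjusted p = 0.18) and -1.92 (adjusted p = 0.16). Without D16 replicate 1 there was 1 call, without 36.5 dpp replicate 1 there were 1 higher and 2 lower, without 22.5 dpp replicate 2 there were 2 higher and 1 lower, and without 6.5 dpp CSF replicate 3 there were 5 higher and 7 lower. With the short-gene covariate 9 were higher and 22 lower, against 4739 and 2899 of all 19255 genes.

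Rps19 stood out from the set in culture. Its protein is needed for 40S maturation, and its mutation in humans is a cause of Diamond-Blackfan anaemia. In vivo the gene had 8.46 CPM in the fresh and 8.38, 7.83 and 13.2 CPM in the CSF libraries of 6.5 dpp, 9.81, 8.37 and 10.5 CPM at 10.5 dpp, 3.30, 4.69 and 3.95 CPM at 22.5 dpp and 3.27 and 2.80 CPM at 36.5 dpp. In cultured fresh tissue it had 52.8, 61.6 and 67.7 CPM at D4, 111 and 31.8 CPM at D16 and 55.2, 95.7 and 20.0 CPM at D30. Every fresh cultured library lay above every in vivo library in the comparison. The D30 library from frozen tissue, at 5.50 CPM, did not, and the left-out library labelled 6.5 dpp fresh replicate 1 had 46.7 CPM. Each of these values was unlike those of the other libraries with the same stage label. In other genes the D30 CSF library was like the cultured ones, with 87.8 CPM of Prm1 and 145 CPM of Prm2, the protamines of spermatids, against 67.2 to 328 and 129 to 680 CPM in fresh D30 and at least 3144 and 7235 CPM at 36.5 dpp. Whether either column is mislabelled was not tested.

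By edgeR the log2 fold change of Rps19 was 2.69 at D4 against 6.5 dpp (standard error 0.61, adjusted p = 0.0043), 2.75 at D4 against 10.5 dpp (standard error 0.68, adjusted p = 0.016), 4.03 at D16 against 22.5 dpp (standard error 0.75, adjusted p = 0.0013) and 3.26 at D30 against 36.5 dpp (standard error 0.81, adjusted p = 0.0019). The difference from 6.5 dpp was not called with fresh libraries only (2.90, adjusted p = 0.057), with the library labelled 6.5 dpp fresh replicate 1 kept neither D4 difference was (adjusted p = 0.13 and 0.11), and the D4 difference from 10.5 dpp was lost without any of the 10.5 dpp libraries (adjusted p from 0.067 to 0.071). Of its 50-base transcript windows 56.8% were unique. Whether reads of Rps19 come from its full transcript was not tested.

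Some members varied widely between libraries of the same group. Within stages, the spread (SD of log2 CPM) had a median of 0.41 over the set, from 0.16 for Rpl9 to 1.90 for Rpl26. Rpl26, of the 60S subunit and a regulator of p53 mRNA translation, had 70.6 CPM in the fresh 6.5 dpp library, 39.0 and 25.8 CPM in 22.5 dpp replicates 1 and 3, 26.4 and 44.5 CPM in D4 replicates 2 and 3, and 48.0 CPM in the D30 CSF library. In each of the other 15 libraries it lay between 1.46 and 6.67 CPM. No library was between 6.67 and 25.8 CPM, and the libraries on either side shared neither stage nor tissue source. Rpl35a (4.28 to 228 CPM) and Rps2 (3.03 to 106 CPM) were next in spread, and were chosen after their values were seen. Both followed group in part. Rpl35a had 6.70 to 10.0 CPM at 10.5 dpp, 26.3 to 34.8 CPM at 22.5 dpp and 29.3 to 42.3 CPM at D4, but 6.03 to 228 CPM at 6.5 dpp. Rps2 had 22.0 to 26.4 CPM at D4, but 5.90 to 36.3 CPM at 10.5 dpp. Such genes have large standard errors (Rpl26 at 22.5 vs 10.5 dpp: log2 fold change 3.15, standard error 1.54, adjusted p = 0.083).

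**Figure D5:**
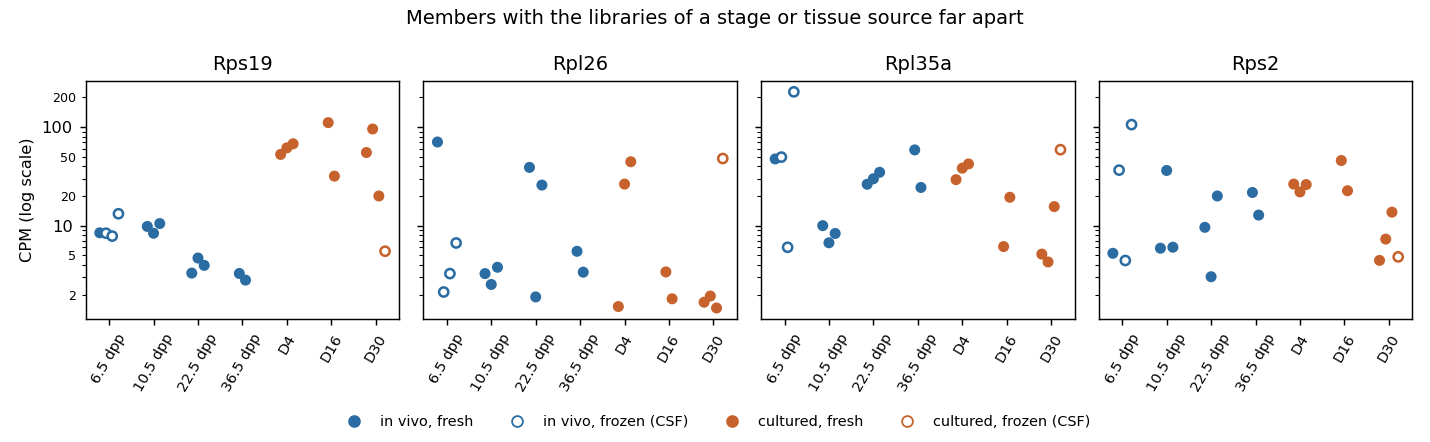
CPM (vertical axis, log scale) of Rps19, Rpl26, Rpl35a and Rps2 in each library, by stage (horizontal axes); filled points are fresh and open points frozen tissue, blue in vivo and orange cultured. Rps19 is at 20.0 to 111 CPM in cultured fresh tissue and at 2.80 to 13.2 CPM in vivo, while the high libraries of Rpl26 (25.8 to 70.6 CPM) come from 4 stages.

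Frozen and fresh tissue were compared over 6.5 dpp and D30 together. By edgeR 0 ribosomal protein genes were called in either direction, and 0% of all genes were called higher and 0% lower. The estimate was higher in frozen tissue for 84 of 89 genes, with a median log2 difference of 0.68 against -0.07 over all genes, 26 genes had an unadjusted p under 0.05, and the smallest adjusted p was 0.65. Without 6.5 dpp CSF replicate 3 the median was 0.39 against -0.06, and 12 genes had an unadjusted p under 0.05. DESeq2 called 0. Rpl6 had a log2 difference of 0.45 (adjusted p = 0.65), Rps27rt of 0.83 (adjusted p = 0.66) and Rpl26 of 0.31 (standard error 1.83, adjusted p = 0.95). Rps27rt rested on 9 to 29 counts per library. With the short-gene covariate the median of the set was 0.13. That covariate is measured from stage means that pool fresh and frozen tissue, so it is not independent of freezing. It was 0.89 in 6.5 dpp CSF replicate 3 and 0.44 in D30 CSF replicate 1, but -0.45 and -0.15 in 6.5 dpp CSF replicates 1 and 2. What lowered the median was not tested. D30 has 1 frozen library, so that stage alone allows no estimate of its spread.

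Of the 7 other paralogs, 6 were tested. From 10.5 to 22.5 dpp 0 were called by edgeR, with a median of -0.44, where 27.9% of all genes fell and 33.6% rose. From 22.5 to 36.5 dpp 1 rose and 1 fell (median 0.78), against 23.3% and 27.5% of all genes. Compared with 6.5 dpp, 2 were lower at D4 (median -1.08), as were 10.1% of all genes. The medians of all genes were 0.06, -0.13 and -0.03. Rps27l, a p53 target, had 57.9, 68.1 and 61.6 CPM at 10.5 dpp and 46.6, 51.3 and 46.6 CPM at 22.5 dpp (log2 fold change -0.08, adjusted p = 0.92), and Rpl22l1, a relative of Rpl22, had 25.3, 18.0 and 24.1 CPM and then 10.2, 16.4 and 16.4 CPM (-0.36, adjusted p = 0.54). In both genes every 22.5 dpp value in CPM was below those of 10.5 dpp, though the difference after TMM scaling was small beside its error.

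Other parts of the translation machinery were followed as lists. Of 34 ribosome synthesis factors, 11 fell and 4 rose from 10.5 to 22.5 dpp (median -0.29), 13 fell and 2 rose from 22.5 to 36.5 dpp (-0.48), and 13 were higher and 6 lower at D30 than at 36.5 dpp (0.43). The shares of all genes called lower in the first 2 of these comparisons were 27.9% and 27.5%, near the 32.4% and somewhat under the 38.2% of the list, and 32.4% of all genes were called higher in the third. Ncl, encoding the nucleolar protein nucleolin, changed by -1.18 (adjusted p = 0.00015), -1.42 (adjusted p = 0.00022) and 1.38 (adjusted p = 9.4e-05) in these comparisons. Of 78 mitochondrial ribosomal protein genes, 10 rose and 3 fell from 10.5 to 22.5 dpp (median 0.02), where 33.6% of all genes rose and 27.9% fell. Mitochondrial and cytosolic ribosomal protein genes thus had medians of 0.02 and -0.62 from 10.5 to 22.5 dpp.

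Of 8 elongation factor and other TOP mRNA genes, 3 fell and 1 rose from 10.5 to 22.5 dpp, against 27.9% and 33.6% of all genes. Pabpc1, the poly(A)-binding protein gene, rose by 2.37 (adjusted p = 2.2e-06), while Tpt1 (-1.12, adjusted p = 0.043) and the muscle and neuron elongation factor gene Eef1a2 (-1.76, adjusted p = 0.012) fell. The call of Eef1a2 rested on low levels, 0.831, 0.445 and 0.746 CPM at 10.5 dpp and 0.185, 0.197 and 0.0948 CPM at 22.5 dpp. Rack1, a scaffold on the 40S head, fell by 0.96 (adjusted p = 0.046). Fau, which encodes a ubiquitin-like protein fused to a 40S protein, had a log2 fold change of -0.72 (adjusted p = 0.10), and rose from 22.5 to 36.5 dpp by 1.19 (adjusted p = 0.022).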

How the data were processed

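Poly(A) RNA of testes and explants was sequenced as stranded, single-end reads of 50 bases. The authors deposited unnormalized counts for each gene, from alignment with STAR 2.7.3a to GRCm38 and HTSeq 0.12.4 (intersection-nonempty). The strand setting is not given in the sources used here, and reads that match several copies of a gene may be lost or misplaced. Of 23 columns, 21 libraries entered 1 fit with 7 groups in edgeR 4.0.16 (R 4.3.3): TMM factors, filterByExpr, the quasi-likelihood F test and Benjamini-Hochberg adjustment over 19255 genes, called at an adjusted p under 0.05. Freezing was an added term in that fit. DESeq2 1.42.0 was an alternative. CPM were computed on library totals. The study calls the replicates biological, and no label ties them to single animals, so p-values measure the spread between these libraries.

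Named genes were X-linked members, their relatives, other paralogs, stalk genes, Rpsa, Rps6, Rpl5, Rpl11, Rps19, Rpl38, members the paper names, Fau, Rack1 and, per comparison, the 3 called members with the largest change in each direction; others are said to be chosen later or illustrate a count. The members and lists were chosen with earlier results of these data known. Coding sequences came from the GENCODE transcripts and start windows from RefSeq. Rps3a2 and Rps3a3 were not analysed here, and some results are not reported here. The fits were tested on simulated data.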

Additional observations from a re-analysis of the deposited data

Results flagged for a closer look

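In groups of 4 libraries, 6.5 dpp CSF replicate 3 lay far above the others in 5 genes. It had 5.86 CPM of Rpl36a (2.94 to 3.31 in the other 3), 1342 CPM of Rplp0 (566 to 658), 1210 CPM of Rplp1 (302 to 431), 304 CPM of Rplp2 (142 to 163) and 13.2 CPM of Rps19 (7.83 to 8.46). Rpl26 had 70.6 CPM in 6.5 dpp fresh replicate 2, against 2.12 to 6.67 CPM in the other 6.5 dpp libraries, and 48.0 CPM in D30 CSF replicate 1, against 1.46 to 1.93 CPM in the other D30 libraries. These 7 came from 50 groups checked. Chance alone marks about 1 in 20 independent groups, but these groups share libraries, so the 7 cannot be set against that rate.

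Between culture and testis, the change over the meiotic interval differed for Rpl9 (-0.87) and Rplp2 (1.55), and that over the spermatid interval for Rpl10 (1.73), Rpl10a (1.10), Rpl3 (1.57), Rpl30 (-1.48), Rpl36 (-2.45) and Rplp2 (-1.48), as log2 differences of differences that passed edgeR's test. In the library labelled 6.5 dpp fresh replicate 1, which was left out of the comparisons unless said to be kept, Rps19 had 46.7 CPM, against 7.83 to 13.2 CPM in the other 6.5 dpp libraries.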

How the results depend on the processing

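Of 57 called changes of named genes, 0 reversed; 18 kept their call under each of 8 other settings and without each library, and over all such fits 1440 stayed and 213 were lost. Among the 18 were Rps4x, Rpl36a, Rpl10, Rpl10l and Rpl39l from 10.5 to 22.5 dpp and Rps19 at D16 and D30. Counts of ribosomal protein genes called moved by over 1.5 times as follows, and the causes were not tested. The number of all genes called also moved under these settings. At the study's volcano thresholds (absolute log2 fold change of at least 2, adjusted p of at most 0.001) the counts were 1 for 22.5 vs 10.5 dpp, 36.5 vs 22.5 dpp, D16 vs D4 and D30 vs 36.5 dpp, and 0 for D4 vs 6.5 dpp, D4 vs 10.5 dpp, D16 vs 22.5 dpp and the meiotic and spermatid step differences. DESeq2 gave 3 for 10.5 vs 6.5 dpp and 56 for D4 vs 6.5 dpp. Library size only gave 2 for D4 vs 10.5 dpp, 39 for D30 vs 36.5 dpp, 4 for the meiotic and 10 for the spermatid step; RLE factors and no filter each gave 1 for the meiotic step. With the library labelled 6.5 dpp fresh replicate 1 kept, the counts were 12 for 36.5 vs 22.5 dpp and 0 for D4 vs 6.5 dpp, D4 vs 10.5 dpp and the meiotic step. Fresh libraries only gave 34 for 36.5 vs 22.5 dpp, 0 for D4 vs 6.5 dpp, 3 for D4 vs 10.5 dpp, 8 for D16 vs 22.5 dpp, 9 for the meiotic and 15 for the spermatid step. The short-gene covariate, added after seeing the data, gave 42 for 10.5 vs 6.5 dpp, 62 for 22.5 vs 10.5 dpp, 50 for 36.5 vs 22.5 dpp, 68 for D4 vs 6.5 dpp, 14 for D16 vs D4, 13 for D4 vs 10.5 dpp, 23 for D16 vs 22.5 dpp, 47 for D30 vs 36.5 dpp, 29 for the meiotic and 31 for the spermatid step. The replicate block gave 2 for D4 vs 10.5 dpp and 5 for D16 vs 22.5 dpp; same-numbered libraries did not deviate together (median correlation 0.00863 over 42 pairs, 10 above 0.1), so the numbers were not taken to pair them. Leaving out 1 library at a time, counts ran from 0 to 1 (10.5 vs 6.5 dpp), 24 to 42 (22.5 vs 10.5 dpp), 6 to 30 (36.5 vs 22.5 dpp), 6 to 49 (D4 vs 6.5 dpp), 0 to 4 (D16 vs D4), 0 to 3 (D4 vs 10.5 dpp), 1 to 8 (D16 vs 22.5 dpp), 18 to 34 (D30 vs 36.5 dpp), 0 to 6 (meiotic step) and 1 to 12 (spermatid step), and stayed at 0 for D30 vs D16 and frozen vs fresh. The mean share of counts then lay between 1.11% and 1.82% (6.5 dpp), 0.920% and 0.968% (10.5 dpp), 0.467% and 0.518% (22.5 dpp), 0.366% and 0.744% (36.5 dpp), 0.671% and 0.788% (D4), 0.538% and 0.890% (D16), or 0.543% and 0.713% (D30). Without the 100 most abundant genes the share was 0.605% at 10.5 dpp and 0.561% at 22.5 dpp, and with canonical genes only it was 0.435% at 22.5 dpp. Depth limits Rpl17, Rpl23a, Rpl29, Rpl32l, Rpl36a, Rpl38, Rps16, Rps23rg1, Rps27rt and Rps29, which have under 20 counts in some libraries.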
